A study of Urocitellus parryii with 3 samples.

Results

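miR-211 and miR-204 (mmu-miR-211 and mmu-miR-204 on the array) are paralogous microRNAs (miRNAs), short RNAs that guide silencing proteins to messenger RNAs. They share the same seed, the stretch of bases 2 to 8 that pairs with the target. Both were followed here in liver RNA of a hibernator, the arctic ground squirrel (Urocitellus parryii), on arrays that carry probes for mouse miRNAs. They were chosen by name as 2 of the 567 mouse miRNA entries on the array, with earlier results of these data known. Their intensities and detection flags on the 3 arrays are therefore a description, and no test is given. miR-211 has 4 probes with 5 spots each per array, and miR-204 has 2 probes with 10 spots each.

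The stages compared were early arousal, when a torpid animal begins to rewarm, late torpor, the end of a bout of cold and slowed metabolism, and post-reproduction, outside the hibernation season. Per the labels' protocols, total RNA of animals of the same stage was mixed in equal amounts into 1 pool, and 100 ng of a pool, marked with the dye Cy3, went onto 1 array. The number, sex and age of the animals in a pool are not given in the sources used here. With 1 array for a stage the spread between animals is unknown, so every error below is a spread between spots of the same array, and stage, pool and array cannot be told apart.

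In the mouse, both miRNAs lie in introns of genes for melastatin-related channels of the transient receptor potential family, miR-211 in Trpm1 and miR-204 in Trpm3. Trpm1 and miR-211 are best known from pigment cells, where the transcription factor Mitf drives them together, and miR-204 from pigmented epithelium of the eye, kidney and pancreatic beta cells. Neither is a characteristic miRNA of hepatocytes. In RefSeq's gene table of the arctic ground squirrel (assembly mUroPar1.hap1), 2 of the 4 names looked up matched, the protein-coding genes Trpm1 and Trpm3, while Mir211 and Mir204 had no match, so the intronic position was not checked in the squirrel.

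Each probe is aimed at a stretch of the mature miRNA, its target window, for which the files give mouse coordinates (build mm9). The windows of miR-211 lie on chromosome 7 and all end at 71350738. They begin at 71350720 for the 19-base window, 71350719 for the 20-base window, 71350718 for the 21-base window and 71350717 for the 22-base window. The windows of miR-204 lie on chromosome 19 and end at 22825121, beginning at 22825103 for the 19-base and 22825102 for the 20-base window. The probes of a miRNA thus read nested stretches of the same molecule and are not separate measurements of it. Intensities of different probes do not give the relative amounts of different miRNAs.

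The liver label was borne out by the hepatocyte miRNAs, of which 7 of 7 (miR-122 among them) were detected on every array. Detected means here that the scanner software flagged over 50% of a probe's kept spots as well above background. By that rule 152 mouse entries were detected at early arousal, 158 at late torpor and 143 at post-reproduction, and 135 (23.8%) on all 3 arrays. The brightest of the 10 viral entries, mghv-miR-M1-2, which served as background, had 22.2, 26.5 and 26.6 intensity units in the same order, so a detected probe is not by itself proof of a squirrel miRNA. The 95th percentile of the 672 negative control spots was 5.29, 5.25 and 5.31.

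miR-211 was dim on every array, and dimmer in both hibernation stages than at post-reproduction. Only its 21-base and 22-base probes at post-reproduction averaged above the viral entry mghv-miR-M1-2 on the same array (26.6 units there). Its 22-base probe, the brightest of the 4, averaged 6.85 ± 1.37 intensity units at early arousal, 11.01 ± 0.66 at late torpor and 39.2 ± 6.90 at post-reproduction (SD, n = 5 spots each). The lowest, median and highest spots were 4.56, 7.46 and 7.86 at early arousal, 10.3, 10.9 and 12.03 at late torpor, and 31.5, 38.8 and 50.4 at post-reproduction. No spot of one stage overlapped the spots of another on this probe.

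The 21-base probe gave the same order, with 4.83 ± 1.72 intensity units at early arousal, 8.07 ± 3.0 at late torpor and 31.4 ± 3.46 at post-reproduction (SD, n = 5 spots each). The 20-base probe had 4.10 ± 1.83, 7.11 ± 2.0 and 19.8 ± 2.41 in the same order. On both of these probes every post-reproduction spot lay above every spot of the hibernation stages, while early arousal and late torpor spots overlapped. The 19-base probe was not detected on any array and showed no such order, with 2.02 ± 0.45 over 4 kept spots at early arousal, -0.41 ± 2.73 at late torpor and 0.41 ± 1.75 at post-reproduction over 5 spots each. One of its early arousal spots was left out because the scanner software marked it as an outlier.

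**Figure D1:**
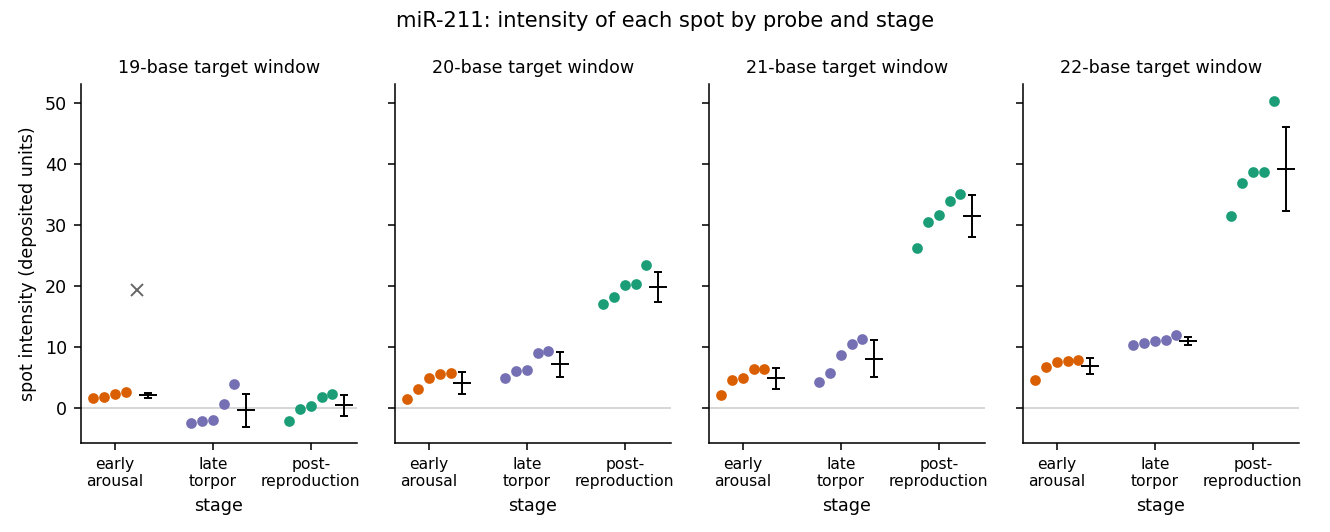
Intensity of each miR-211 spot in deposited units, in 1 panel per probe, with early arousal, late torpor and post-reproduction from left to right. Points are spots, the cross is a spot marked as an outlier, and bars give the mean ± SD of kept spots; in the 20-, 21- and 22-base panels all post-reproduction spots lie above the rest, and in the 19-base panel kept spots lie near 0.

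Detection of miR-211 followed the same pattern. At early arousal 0 of its 4 probes were detected, at late torpor 2 (the 21-base probe with 3 of 5 spots well above background and the 22-base probe with 5 of 5), and at post-reproduction 3, each with 5 of 5 spots. The weaker flag for a positive and significant signal was nonetheless set on 5 of 5 early arousal spots of both the 21-base and the 22-base probe. The scanner software's own call per miRNA, which sums over probes, marked miR-211 as detected on all 3 arrays, as it did for 155 mouse entries. The signal at early arousal was therefore above background by that call but not well above it.

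Detection at late torpor and post-reproduction without early arousal was held by 6 of 567 mouse entries (1.06%). The other 5 were miR-190b, miR-207, miR-291b-5p, miR-715 and miR-7a*. Most entries could not show such a pattern, since 401 were detected on no array and 135 on all 3. Among the other patterns, early arousal with late torpor was held by 10, late torpor alone by 7 and early arousal alone by 6. Early arousal with post-reproduction was held by 1, and post-reproduction alone by 1.

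The background subtracted from the spots was several times the signal of miR-211 in hibernation. Before subtraction the kept spots of the 22-base probe averaged 62.2 intensity units at early arousal, 67.4 at late torpor and 94.3 at post-reproduction. The value subtracted was 55.4, 56.4 and 55.1 in the same order. For the 20-base probe it was 56.8, 58.5 and 55.4, beside mean signals of 4.10, 7.11 and 19.8 units. The part of the subtracted background in the differences of miR-211 was not tested.

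miR-204 was detected on all 3 arrays by both of its probes. The 20-base probe averaged 54.6 ± 3.81 intensity units at early arousal, 50.4 ± 2.79 at late torpor and 70.5 ± 4.0 at post-reproduction (SD, n = 10 spots each). Its lowest, median and highest spots were 48.1, 55.0 and 59.0 at early arousal, 45.4, 50.4 and 55.2 at late torpor, and 65.8, 70.3 and 76.0 at post-reproduction. Post-reproduction spots again lay above all others before the arrays were scaled, while the hibernation stages overlapped. The 19-base probe averaged 14.3 ± 3.59 at early arousal, 10.4 ± 2.18 at late torpor and 16.1 ± 1.79 at post-reproduction, and spots of all stages overlapped on it. These means lay below the viral entry mghv-miR-M1-2 on every array (22.2, 26.5 and 26.6 units in the same order). At late torpor 8 of the 10 spots of the 19-base probe were well above background, and on the other arrays 10 of 10.

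**Figure D2:**
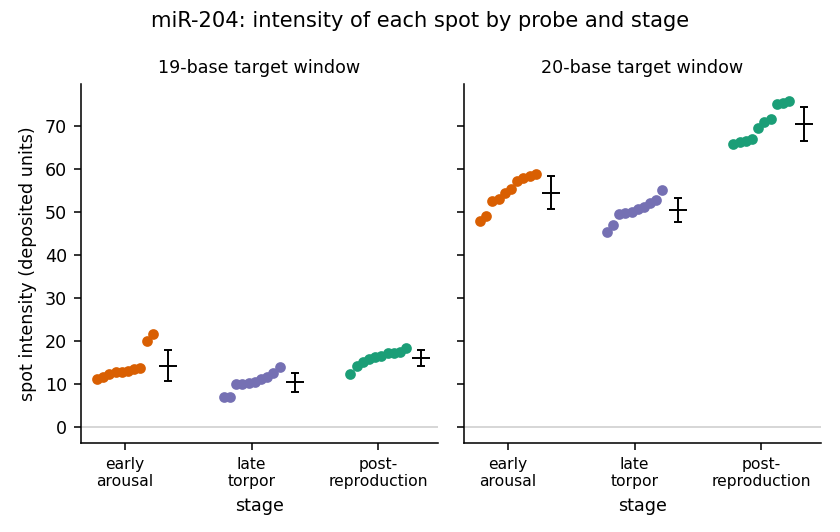
Intensity of each miR-204 spot in deposited units for the 19-base probe (left panel) and the 20-base probe (right panel), with early arousal, late torpor and post-reproduction from left to right. Points are spots and bars the mean ± SD over 10 spots; the 20-base probe lies between 45.4 and 76.0 on every array, and the 19-base probe between 6.89 and 21.7.

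For both miRNAs the longer window gave the brighter signal wherever the miRNA was detected. On the post-reproduction array the miR-211 probes had 0.41, 19.8, 31.4 and 39.2 intensity units from the 19-base to the 22-base window, and the miR-204 probes 16.1 and 70.5 for the 19-base and 20-base windows. This is not particular to the pair. Of the detected mouse entries whose probes have windows of unequal length, the probe with the longest window was the brightest in 139 of 149 at early arousal, 141 of 155 at late torpor and 132 of 140 at post-reproduction.

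**Figure D3:**
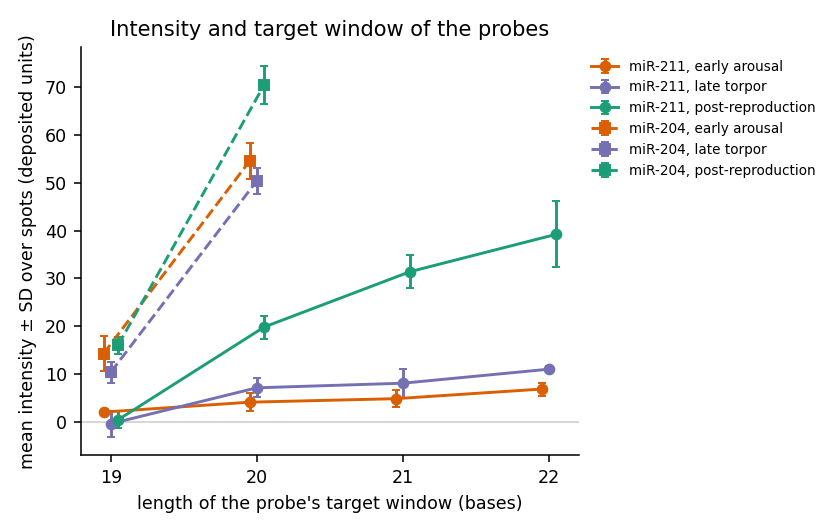
Mean intensity ± SD over spots (deposited units) against the length of the probe's target window in bases, for miR-211 (circles, solid lines) and miR-204 (squares, dashed lines), with a colour per stage. The miR-211 lines separate with length, up to 39.2 at post-reproduction at 22 bases. The miR-204 means run from 10.4 to 16.1 at 19 bases and from 50.4 to 70.5 at 20 bases.

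To compare arrays, each was scaled by the 75th percentile of log2 intensity over the 250 probes detected throughout. It was 350.4 units at early arousal, 349.1 at late torpor and 398.3 at post-reproduction. Differences below are differences of scaled log2 intensity, each with the standard error (SE) that its spots give. The rule of size asked for a log2 difference of 1 or more (2-fold) that exceeded 2 times its SE, with each probe used on the same side.

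The first comparison set late torpor against post-reproduction, hibernation against the active season. miR-211 was 3.09-fold lower at late torpor by its 22-base probe (95% interval from spots 2.64 to 3.62), a log2 difference of -1.63 ± 0.12. The 21-base probe was 3.62-fold lower (2.48 to 5.28), and the 20-base probe, not detected at late torpor, at least 2.04-fold lower. miR-211 was the only one of the 141 mouse miRNAs detected on both arrays that was lower past the rule of size (0.709%), beside 3 that were higher (2.13%). Under other settings it was not alone: 7 were lower past the rule with scaling on all probes, 3 with scaling on the summed intensity or strict detection, and 2 with scaling on the median, without scaling or with lenient detection. Of the 135 detected on all arrays, 3 were higher (2.22%) and 0 lower past the rule. Of 19 detected on 1 of these 2 arrays, 2 had a bound of at least 2-fold higher (10.5%) and 0 lower. The next lowest was miR-200b, an epithelial miRNA, at -0.89. With outlier spots kept it was miR-190b at -1.52, close to miR-211 at -1.63 under that setting. The median of the 141 was 0.12. That median moves with the scaling, which shifts all differences of a comparison together: over the 135 miRNAs it was 0.13, and it ranged from -0.26 to 0.18 under the alternatives tried. The scaled spot ranges of a probe with 5 spots did not overlap, and were lower at late torpor, for 0.758% of 1055 mouse probes. Among them were 3 of the 4 miR-211 probes, which read nested stretches of the same molecule. This share and the like shares below include probes of the 401 mouse entries detected on no array. The share among detected probes is not given. Normexp, an alternative background correction, ended the call of miR-211 by the rule of size, with a difference of -0.30.

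miR-204 was on the same side at late torpor but differed far less. Over its 2 probes it was 1.30-fold lower (1.20 to 1.41), a log2 difference of -0.38 ± 0.06, and it did not pass the rule of size. Of the 141 miRNAs, 8 had a lower difference and 132 a higher one. By probe the difference was -0.29 ± 0.04 for the 20-base and -0.46 ± 0.12 for the 19-base window. Its scaled 20-base spots were lower without overlap, as for 2.15% of all 1672 mouse probes, and its 19-base spots overlapped. Under normexp the difference was -0.0086.

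The second comparison set early arousal against post-reproduction. miR-211 was at least 3.37-fold lower at early arousal by its 22-base probe, given as a bound because that probe was not well above background there. The bound sets post-reproduction against 10.1 intensity units, the lowest spot well above background on the early arousal array, and the measured means were 6.85 at early arousal and 39.2 at post-reproduction. The other bounds were at least 2.72-fold for the 21-base and at least 1.71-fold for the 20-base probe. Of 23 mouse miRNAs detected on 1 of these 2 arrays, 2 were at least 2-fold lower at early arousal (8.7%), miR-211 and miR-190b, and 5 were at least 2-fold higher (21.7%). Spot ranges were lower without overlap in 2.37% of the mouse probes with 5 spots, 3 of the 4 miR-211 probes among them. The bound dropped to a log2 value of -0.45 under normexp and of -0.46 when all 4 probes were averaged.

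miR-204 was close to its post-reproduction level at early arousal, with a log2 difference of -0.099 ± 0.06, or 1.07-fold lower (0.986 to 1.16). Its 20-base probe gave -0.19 ± 0.04 and its 19-base probe -0.011 ± 0.11. Of the 136 mouse miRNAs detected on both arrays, 47 had a lower and 88 a higher difference, and past the rule 4 were higher (2.94%) and 1, miR-378, lower (0.735%), or 2.96% and 0.741% of the 135 detected on all arrays. The scaled spots of both miR-204 probes overlapped, and 4.84% of all mouse probes were lower without overlap. Under normexp the sign of miR-204 turned, to 0.051.

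Early arousal and late torpor, the stages inside hibernation, made the third comparison. The 22-base probe of miR-211 averaged 6.85 units on the early arousal and 11.01 on the late torpor array, and its spots did not overlap, which held in the same direction for 2.46% of mouse probes with 5 spots. Because the early arousal signal was not well above background, only a bound of at least 1.09-fold lower at early arousal could be given. It did not reach 2-fold, as 1 of 20 miRNAs did in that direction (5%) and 3 in the other (15%). Only 1 of the 4 miR-211 probes thus separated the hibernation stages without overlap. miR-204 was 1.21-fold higher at early arousal (1.09 to 1.34), a log2 difference of 0.28 ± 0.08, and 0.11 ± 0.04 by its 20-base probe alone. It did not pass the rule, which 3 of the 145 miRNAs detected on both arrays did in that direction and 2 in the other (2.07% and 1.38%), or 1.48% each way of the 135. Of the 145, 127 had a lower difference than miR-204 and 17 a higher one. Spots of both miR-204 probes overlapped. Lower at early arousal without overlap, the side opposite to miR-204, were 5.38% of all mouse probes. The share that was higher is not given.

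**Figure D4:**
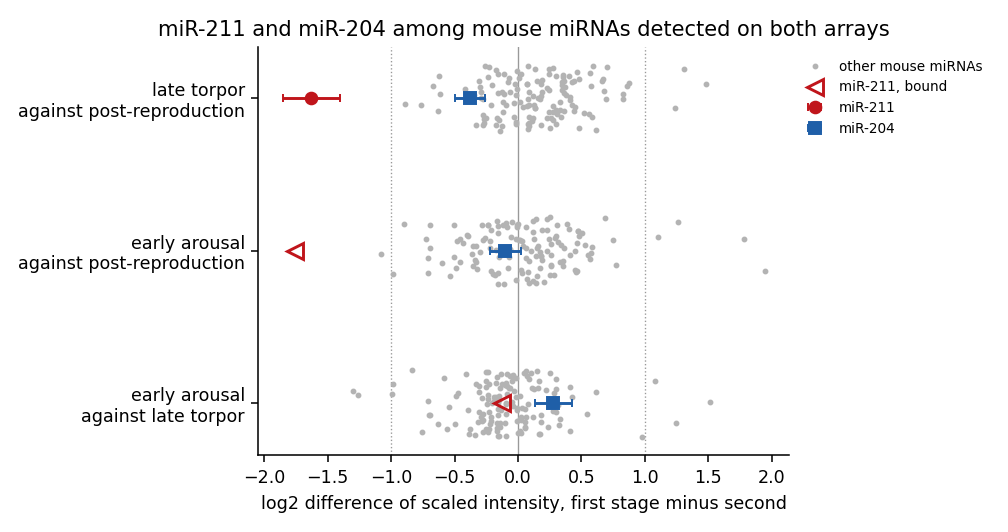
Log2 difference of scaled intensity (first stage minus second) for each mouse miRNA detected on both arrays of a comparison (grey points), with miR-204 (squares) and miR-211 (circle) and their 95% intervals from spots. Open triangles are bounds of miR-211, which could lie further left, and dotted lines mark the 2-fold size; miR-211 is the lowest point in late torpor against post-reproduction at -1.63, and miR-204 lies between -0.38 and 0.28.

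The scanner software's total signal per miRNA was a further readout of the same probes. The total was 6.33 intensity units at early arousal, 9.23 at late torpor and 32.5 at post-reproduction, and for miR-204 it was 48.9, 43.5 and 61.9 in the same order. Scaled on their own 75th percentile over the 155 mouse entries that the software detected on all arrays, the totals of miR-211 differed by -1.85 (3.60-fold lower) in late torpor against post-reproduction, and none of the other entries had a lower difference. No fold is given for the early arousal total of miR-211, since 0 of its 4 probes were well above background there. The totals of miR-204 differed by -0.54 in late torpor and -0.22 in early arousal, both against post-reproduction, and by 0.32 in early arousal against late torpor.

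A ratio of both miRNAs on the same array does not depend on how arrays are scaled, and was added after the data were seen. The 22-base probe of miR-211 had 21.8% of the intensity of the 20-base probe of miR-204 at late torpor and 55.1% at post-reproduction. At early arousal it had 12.3%, or 18.6% at the lowest signal well above background. The ratio was 2.52-fold lower at late torpor than at post-reproduction (95% interval from spots 2.14 to 2.98) and at least 2.96-fold lower at early arousal than at post-reproduction. These probes of the paralogs thus differed unequally between the arrays, which does not show that either miRNA stayed constant. Under normexp the change of the ratio in late torpor against post-reproduction was only -0.22. Probes of miR-211 read at most 6.85 intensity units at early arousal while those of miR-204 read up to 54.6 on the same array. Whether a probe of one paralog takes signal from the other was not tested.

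The profile of miR-211 over the stages was compared with those of the 165 other mouse miRNAs detected on at least 1 array. The measure was the Euclidean distance of scaled log2 values centred on each miRNA's mean over 3 arrays. Values dimmer than the floor, the lowest spot well above background on that array, were set to it. The 5 nearest were miR-378 (distance 0.63), encoded in an intron of Ppargc1b, miR-200b (0.75), miR-186 (0.82), miR-222 (0.90) and miR-152 (0.91). All of them were brightest at post-reproduction, but with a smaller range than miR-211. miR-378, for example, had 57.4 ± 2.82 intensity units at early arousal, 71.4 ± 4.07 at late torpor and 140.04 ± 3.90 at post-reproduction on its brightest probe (SD over 9, 10 and 10 spots).

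miR-204 had a smaller range over the stages than miR-211. Its neighbours were closer: miR-291b-5p (distance 0.020), miR-466f-3p (0.034), miR-197 (0.045), miR-181b (0.091) and miR-483* (0.10). The place of miR-291b-5p rests on the floor, since it was dimmer than the floor at early arousal and not detected there. Its measured intensities of 4.46, 9.74 and 13.03 units at early arousal, late torpor and post-reproduction run in another order than those of miR-204. miR-181b was detected at early arousal, but its log2 value there was set to the floor. Its probe was not detected at late torpor, where the measured value was kept. With 3 arrays such likeness is a description only.

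**Figure D5:**
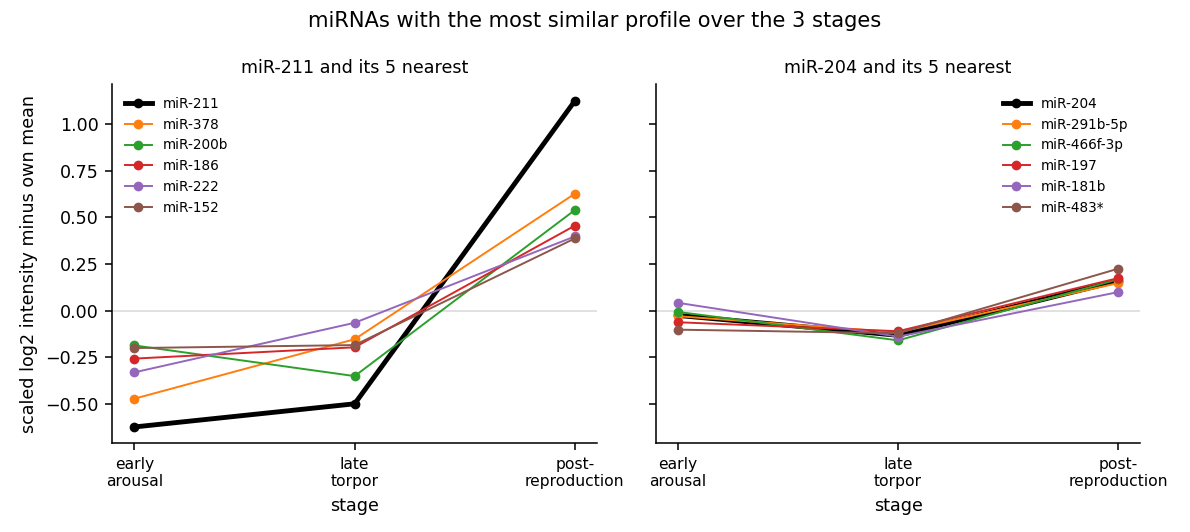
Scaled log2 intensity minus each miRNA's own mean over the 3 arrays (y axis) for miR-211 (left, black) and miR-204 (right, black) with the 5 nearest miRNAs (coloured), by stage. miR-211 runs from -0.63 at early arousal, where it is at the floor, through -0.50 at late torpor to 1.13 at post-reproduction, and its neighbours from lows of about -0.47 to at most 0.63.

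Other miRNAs that lie in introns of protein-coding genes lay on both sides of 0 in each comparison. Of the 30 on the list, 23 were detected on all arrays. In late torpor against post-reproduction 14 were higher and 9 lower, none past the rule, with a median of 0.27. Of all 135 mouse miRNAs detected on all arrays, 88 were higher and 47 lower, with a median of 0.13. On the list the highest was miR-15b of the gene Smc4 at 0.88 ± 0.02 and the lowest miR-378 at -0.77 ± 0.03. Against post-reproduction, early arousal had 14 higher and 9 lower, beside 75 and 60 of the 135, with a median of 0.12 beside 0.062. On the list 1 passed the rule each way, miR-452 at 1.10 ± 0.06 and miR-378 at -1.08 ± 0.02. In early arousal against late torpor 5 were higher and 18 lower, beside 47 and 88 of the 135, with a median of -0.17 beside -0.094. The lowest, miR-500 at -1.26 ± 0.08, was the only one on the list past the rule. Each median of the list turned sign when arrays were scaled on all probes, to -0.12, -0.061 and 0.036.

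Since liver RNA comes from many cell types, fewer cells of a type and less RNA per cell cannot be told apart. Of the 4 other miRNAs of pigmented and sensory epithelium, miR-182, miR-183 and miR-96 were detected on no array. miR-184, the remaining member, was detected on every array and was lower in both hibernation stages, by -0.71 ± 0.04 at early arousal and -0.30 ± 0.04 in late torpor against post-reproduction. It kept that side under each alternative tried. The summed brightest-probe intensity of these 4, deposited and not scaled, was 117 units at early arousal, 157 at late torpor and 219 at post-reproduction. It holds 1 detected miRNA, miR-184, beside undetected ones, so it is not a trend of the list.

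Of the 7 neural miRNAs only miR-128 was detected on any array, and miR-9, miR-124, miR-137, miR-138, miR-153 and miR-219 were not. Of the 5 pancreatic miRNAs only miR-7a was, and miR-375, miR-7b, miR-216a and miR-217 were not. The summed intensity was 44.8, 61.7 and 49.0 units for the neural and 68.3, 70.3 and 60.6 for the pancreatic list at early arousal, late torpor and post-reproduction. Each of these sums, of deposited intensity, also holds 1 detected miRNA only.

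The 3 red blood cell miRNAs were detected on every array, and their summed intensity was 2507 at early arousal, 4144 at late torpor and 1993 at post-reproduction. Leukocyte miRNAs, with 6 of 7 detected and miR-155 on no array, summed to 668, 915 and 765, and hepatocyte miRNAs to 58462, 67061 and 57332. These sums are of deposited intensity, without scaling between arrays. The part of any cell type in the difference of miR-211 was not tested.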

How the data were processed

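Liver RNA pools of 3 stages were read on 3 arrays, 1 per stage. The scanner software was Agilent Feature Extraction 9.5.3.1, as the submitters' processing notes state. The deposited intensity had, per the file headers, a spatial trend of the background fitted over the array taken off each spot, without any step between arrays, and the deposited flags (other values of 0 or 1) and the totals per miRNA come from the same program. The authors' deposited series table held identical intensity values at all 12493 spots of each array.

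Outlier-flagged and control spots were left out. No miRNA spot was saturated. Spots at or below 0, found only in undetected probes of the pair, were set to the lowest spot well above background (10.1, 8.49 and 10.7 units for early arousal, late torpor and post-reproduction). log2 values of the deposited intensity were averaged over the spots of a probe, and arrays scaled on the 75th percentile over probes detected on all arrays. miR-204 was averaged over its probes. For miR-211, not detected on all arrays, the brightest probe was used, with a bound where 1 array did not detect it. Nothing was tested between arrays, for want of replicates.

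The members, lists and rules were chosen with earlier results of these data known. Genes were named as follows: both members, the 5 nearest profiles of each, the brightest viral entry and the extremes of a list. The alternatives were 13, given with their effect at the end, and normexp (offset 50) was run in limma 3.58.1. Scripts used Python 3.11.15 and pandas 2.3.3 and were tested on simulated data of probes detected on all arrays. That test did not cover the bounds or the brightest-probe rule used for miR-211.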

Additional observations from a re-analysis of the deposited data

How the results depend on the processing

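No paired analysis was possible because each stage is 1 array. Precision is limited by the number of arrays and by signals close to background. The cause of the shifts below was not tested, except that normexp adds an offset of 50 units to every spot, which by construction shrinks differences of dim probes. Replacing the scanner values by the series table changed no value. The ratio, the totals, miR-184, the medians and the counts over miRNAs detected on 2 arrays were added to the comparison after the data were seen.

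In late torpor miR-211 stayed below its post-reproduction value under all 12 alternatives that gave a difference, and passed the rule of size under each but normexp (-0.30). It moved beyond its spot interval with scaling on all probes (-2.02), on the summed intensity (-1.89) and with strict detection, all spots well above background (-1.86). It was the lowest of the miRNAs detected on both arrays under each setting but normexp, where 2 of 141 were lower. Its bound in early arousal against post-reproduction moved with normexp (-0.45) and with all probes averaged (-0.46), both short of 2-fold, and was -1.71 to -2.02 otherwise. For early arousal against late torpor the alternatives that gave a bound put it between -0.12 and -0.15. No bound over 1 was left when arrays were scaled on all probes, on the median of detected probes or on the summed intensity, with lenient detection (25% of spots) or with probes averaged. The ratio of miR-211 to miR-204 moved only with normexp (-0.22 in late torpor and -0.42 in early arousal, against post-reproduction).

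miR-204 in late torpor against post-reproduction was -0.77 with scaling on all probes, -0.63 on the summed intensity, -0.57 without scaling, -0.0086 with normexp, -0.53 with strict and -0.54 with lenient detection. Its value in early arousal against post-reproduction was -0.28 on all probes, -0.28 without scaling, 0.051 with normexp and -0.45 with strict detection. Its value in early arousal against late torpor was 0.49 on all probes, 0.43 on the median, 0.43 on the summed intensity, 0.060 with normexp, 0.076 with strict detection and 0.11 with the brightest probe. With strict detection 1 probe of each miRNA was detected in late torpor, in place of 2, and lenient detection gave 3 for miR-211.

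Counts of miRNAs past a threshold are given below where they moved by more than 1.5 times, and smaller changes, of 1 miRNA each, are left out. Among the 135 measured on all arrays, in late torpor against post-reproduction 3 were higher, but 1 on all probes and with normexp. There 0 were lower, but 6 on all probes, 2 on the summed intensity and with strict detection, and 1 on the median, without scaling and with lenient detection. For early arousal against post-reproduction 4 were higher, but 2 with normexp and strict detection, and 1 was lower, but 3 on all probes, on the summed intensity and without scaling, 0 with normexp, and 2 with outlier spots kept and with strict or lenient detection. Between early arousal and late torpor 2 were higher and 2 lower, but 0 each way with normexp. Of the 141 detected in both late torpor and post-reproduction 1 was lower (miR-211), but 7 on all probes, 3 on the summed intensity and with strict detection, 2 on the median, without scaling and with lenient detection, and 0 with normexp.

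Bounds of at least 2-fold in late torpor against post-reproduction were 2 higher, but 1 on the median and with lenient detection, and 0 on all probes, on the summed intensity, without scaling, with normexp, with strict detection and with probes averaged. Those of early arousal against post-reproduction were 5 higher, but 3 with strict detection, 2 with probes averaged and 0 with normexp, and 2 lower, but 0 with normexp and with probes averaged. Those of early arousal against late torpor were 3 higher, but 6 with a floor at the lowest detected probe and 0 with normexp and with probes averaged, and 1 lower, but 3 with strict detection and 0 with normexp. The medians of the intronic list ranged from -0.12 to 0.28, -0.13 to 0.16 and -0.20 to 0.036 in the 3 comparisons.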
